A study of Mus musculus with 3 samples.

Results

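The genes described here are 7 genes of MHC class I antigen presentation in the mouse uterus at pregnancy day 7.5: H2-K1, H2-D1, B2m, H2-T23, Tap1, Tap2 and Tapbp. They were chosen by symbol, and all 7 were found among the 32287 features of the library. The study examines the uterine microenvironment in early pregnancy, and its single-cell data name 3 samples. The library analysed here came from whole uterus of females housed to 8 weeks of age, mated with stud males and dissected at day 7.5; its labels give no genotype. A Prl8a2icre/+ Sun1-GFPLsL/+ sample, carrying a Cre allele and a GFP reporter allele, and a Sun1-GFPLsL/+ sample without Cre are not analysed here. The uterus was taken apart with trypsin and the cells were loaded on a droplet chip with 3′ chemistry, so each value counts unique molecular identifiers (UMIs, 1 per captured transcript). With 1 library there is no replicate check on any difference below, no test was made, and each interval is an exact 95% interval that covers counting error alone.

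MHC class I molecules show peptides from inside the cell to CD8 T cells and to receptors of natural killer (NK) cells. A heavy chain pairs with beta-2 microglobulin, the peptide is cut by the proteasome, pumped into the endoplasmic reticulum by the TAP transporter and loaded with the help of tapasin. Interferons, NF-kB and the transactivator NLRC5 raise this machinery. In the decidua, NK cells are abundant beside the implanted conceptus, and their Ly49 and CD94/NKG2 receptors read class I molecules of neighbouring cells.

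H2-K1 and H2-D1 encode the classical heavy chains, H2-T23 encodes the non-classical heavy chain Qa-1, B2m the shared light chain, Tap1 and Tap2 the transporter subunits, and Tapbp tapasin. In GENCODE M21 on GRCm38, 6 of them lie on chromosome 17, in or near the H2 complex. H2-K1 spans 33996017 to 34000347 on the minus strand, H2-D1 35262730 to 35267499 on the plus strand, and H2-T23 36029773 to 36032855 on the minus strand. Tapbp spans 33915899 to 33929292, Tap1 34187553 to 34197225 and Tap2 34203527 to 34216321, all on the plus strand. B2m lies on chromosome 2, from 122147686 to 122153083 on the plus strand. Tapbp overlaps Zbtb22 on the same strand, and Tap1 overlaps Psmb9 on the opposite strand. Class I heavy chain genes resemble each other and differ between mouse strains, and the labels name no strain, so how reads were divided among H2 genes is uncertain.

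Promoters of the 4 genes that form the class I complexes are shown because H2-K1 and H2-D1 moved together across the cells while B2m and H2-T23 each departed from them. The sequences are RefSeq's on GRCm38.p6, read 5′ to 3′ on the gene's strand, and 6 of the 7 genes had a promoter entry (Tap2 did not). Capitals mark 4 motifs known from class I promoters, searched on both strands of the 250 bases before the start: an IRF core (AANNGAAA), an NF-kB-like site (GGG, 2 free bases, T, 2 free bases and CC), a CRE-like site (TGACG) and a CCAAT box (CCAAT). NF-kB-like matches may overlap each other by all but 1 base, and a capital run of 11 bases holds such a pair.
H2-K1, chr17:34000354-34000482, minus strand: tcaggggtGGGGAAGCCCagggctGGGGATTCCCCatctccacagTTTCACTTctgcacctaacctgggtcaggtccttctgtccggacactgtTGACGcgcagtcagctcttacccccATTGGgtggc
H2-D1, chr17:35262902-35263050, plus strand: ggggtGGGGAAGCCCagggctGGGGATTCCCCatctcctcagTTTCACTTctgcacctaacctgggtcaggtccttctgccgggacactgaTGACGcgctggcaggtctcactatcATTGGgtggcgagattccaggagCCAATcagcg
B2m, chr2:122147545-122147643, plus strand: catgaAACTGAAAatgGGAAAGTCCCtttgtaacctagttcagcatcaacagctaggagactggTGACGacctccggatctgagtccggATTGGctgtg
H2-T23, chr17:36032744-36032830, minus strand: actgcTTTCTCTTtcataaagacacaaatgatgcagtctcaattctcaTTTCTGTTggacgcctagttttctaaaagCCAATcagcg
Over 32817 mouse promoters of the same length the IRF core was present in 21.3%, the NF-kB-like site in 15.9%, the CRE-like site in 17.7% and the CCAAT box in 33.8%. All 4 motifs were present in 48 promoters (0.146%), H2-K1, H2-D1 and B2m among them. The motifs were chosen because they are known from class I promoters, so this share is no test of their presence in these genes. B2m held the same 4 kinds of motif as H2-K1 and H2-D1. H2-T23 held the IRF core and the CCAAT box, Tap1 the CRE-like site and the CCAAT box, and Tapbp the CCAAT box alone. A further NF-kB-like match in H2-K1 lies from 227 to 218 bases before the start, outside the stretch shown. The H2-D1 and H2-T23 stretches lie inside the longer spans that GENCODE gives these genes. A match describes letters and shows no binding.

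The library held 2775 barcodes and 16848794 UMIs, and 1812 cells were kept, with a median of 4509.5 UMIs per cell. The 7 genes took 38812 of the kept UMIs, or 0.265%. Cells fell into 21 clusters, and 20 of them were joined into 10 classes by fixed marker sets, named here as X-like since no annotation by the authors was used. Undifferentiated stroma-like cells numbered 416, epithelium-like 374, NK cell and innate lymphoid-like 314, mononuclear phagocyte-like 269 and decidual stroma-like 149. The smaller classes were mesothelium-like (88), endothelium-like (67), T cell-like (42), pericyte and smooth muscle-like (35) and B cell-like (23). Median depth ran from 1763 UMIs in B cell-like to 6839 in decidual stroma-like cells, and the median mitochondrial share was 12.1% in decidual stroma-like cells against 4.29% in undifferentiated stroma-like cells.

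Transcripts of H2-K1 and H2-D1 were highest in immune cells, intermediate in endothelium, mesothelium and epithelium, and lowest in pericytes and stroma. Decidual stroma was at the bottom for all 3 of H2-K1, H2-D1 and B2m. The other genes kept this order only in part. Epithelium-like cells were below pericyte-like cells for B2m and no higher than undifferentiated stroma-like cells for Tap1, Tap2 and H2-T23. Tapbp was highest in mesothelium-like cells. H2-K1 had 2243 UMIs per 1000000 UMIs of the class (CPM) in T cell-like, 1769 in B cell-like, 1711 in mononuclear phagocyte-like and 1452 in NK cell and innate lymphoid-like cells. It had 899 CPM in endothelium-like, 709 in mesothelium-like and 659.6 in epithelium-like cells. It had 165 CPM in pericyte and smooth muscle-like, 158 in undifferentiated stroma-like and 61.6 (49.5 to 75.8) in decidual stroma-like cells. T cell-like cells thus held 36.4 times (28.5 to 46.9) the H2-K1 CPM of decidual stroma-like cells. CPM is a share of the UMIs of a class and no count per cell. Median depth was 2589 UMIs in T cell-like and 6839 in decidual stroma-like cells, and the part of depth in the order of classes was not tested. In this order 5 of 9 neighbouring pairs differed beyond counting error, and the other 4 pairs did not: T cell-like and B cell-like, B cell-like and phagocyte-like, mesothelium-like and epithelium-like, and pericyte-like and undifferentiated stroma-like cells.

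H2-D1 followed nearly the same order over a wider range. B cell-like cells had 1631 CPM, mononuclear phagocyte-like 1580.4, T cell-like 1437, NK cell and innate lymphoid-like 973 and endothelium-like 872. Epithelium-like cells had 498 CPM and mesothelium-like cells 359.8. Pericyte-like cells had 141 CPM, undifferentiated stroma-like 131 and decidual stroma-like 33.2 (24.5 to 44.0). The ratio of the highest to the lowest class was 49.1 (33.6 to 72.4), and 6 of 9 neighbouring pairs differed beyond counting error; the pairs among the 3 leading classes, and pericyte-like and undifferentiated stroma-like cells, did not. H2-D1 counts per H2-K1 count ran from 0.507 (0.421 to 0.610) in mesothelium-like cells to 0.970 (0.850 to 1.11) in endothelium-like cells, so the balance between the classical heavy chains was not the same in all classes.

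B2m, the shared light chain of class I molecules, had its highest value in mononuclear phagocyte-like cells, 2503 CPM. The ratio of these to T cell-like cells was 1.07 (0.944 to 1.22), not beyond counting error. T cell-like cells had 2339 CPM, B cell-like 2136, NK cell and innate lymphoid-like 1663 and endothelium-like 1506. Below them a gap of 2.71-fold (2.36 to 3.12) separated endothelium-like from mesothelium-like cells, at 556 CPM. Pericyte-like cells had 401 CPM and epithelium-like 267, and stroma was again lowest, with 117 (99.97 to 136) in decidual stroma-like and 228 (205 to 254) in undifferentiated stroma-like cells. The epithelium, sixth of 10 classes for H2-D1, was eighth for B2m, while pericyte-like cells stood above it. The part of RNA released by other cells in this order was not tested. B2m ranged over 21.4-fold (18.3 to 25.1), a narrower range than that of the heavy chains.

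H2-T23, whose product Qa-1 presents leader peptides of other class I chains to CD94/NKG2 receptors, had 270.5 CPM in mononuclear phagocyte-like, 207 in B cell-like, 175 in T cell-like and 130.1 in NK cell and innate lymphoid-like cells. Endothelium-like cells had 110.02 CPM. All other classes lay between 40.9 CPM in mesothelium-like and 11.1 in decidual stroma-like cells. The ratio of the highest to the lowest class was 24.4 (14.8 to 43.2), and 1 of 9 neighbouring pairs differed beyond counting error, that of endothelium-like and mesothelium-like cells.

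The transporter and its partner tapasin were less alike. Tap1 had 156 CPM (134.6 to 179) in mononuclear phagocyte-like cells, 131 in T cell-like, 69.5 in NK cell and innate lymphoid-like, 11.8 in undifferentiated stroma-like, 8.82 in epithelium-like and 6.23 in decidual stroma-like cells. Pericyte-like cells had 0 Tap1 UMIs, which allows up to 11.8 CPM when the limit is set at 3 counts of the class total (the exact interval ends at 14.5 CPM). Tap2 peaked elsewhere, with 138 CPM from 6 UMIs in B cell-like, 114 in T cell-like and 101 in NK cell and innate lymphoid-like cells against 73.0 in mononuclear phagocyte-like cells. Tap1 counts per Tap2 count were 2.13 (1.65 to 2.77) in mononuclear phagocyte-like cells, 1.03 (0.632 to 1.67) in endothelium-like cells, 0.833 (0.548 to 1.26) in epithelium-like cells and 0.687 (0.585 to 0.805) in NK cell and innate lymphoid-like cells. The 2 subunits of this transporter were therefore captured in different proportions in phagocyte-like and NK-like cells.

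Tapbp did not follow the immune pattern. Mesothelium-like cells, the lining of the outer uterine surface, had 411 CPM (356 to 472), against 230 (110.2 to 422) in B cell-like and 195.8 in mononuclear phagocyte-like cells. The ratio of mesothelium-like to B cell-like cells was 1.79 (0.953 to 3.79), not beyond counting error, and 2 of 9 neighbouring pairs in the order differed beyond it. NK cell and innate lymphoid-like cells had 140.4 CPM, decidual stroma-like 67.1, epithelium-like 51.1, undifferentiated stroma-like 44.4 and pericyte-like cells 27.5. Tapbp counts per B2m count were 0.739 (0.613 to 0.890) in mesothelium-like and 0.574 (0.442 to 0.741) in decidual stroma-like cells, against 0.0782 to 0.192 in the phagocyte-like, NK-like, endothelium-like and epithelium-like classes. Zbtb22 overlaps Tapbp on the same strand, so how reads from the shared stretch were counted is uncertain.

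**Figure D1:**
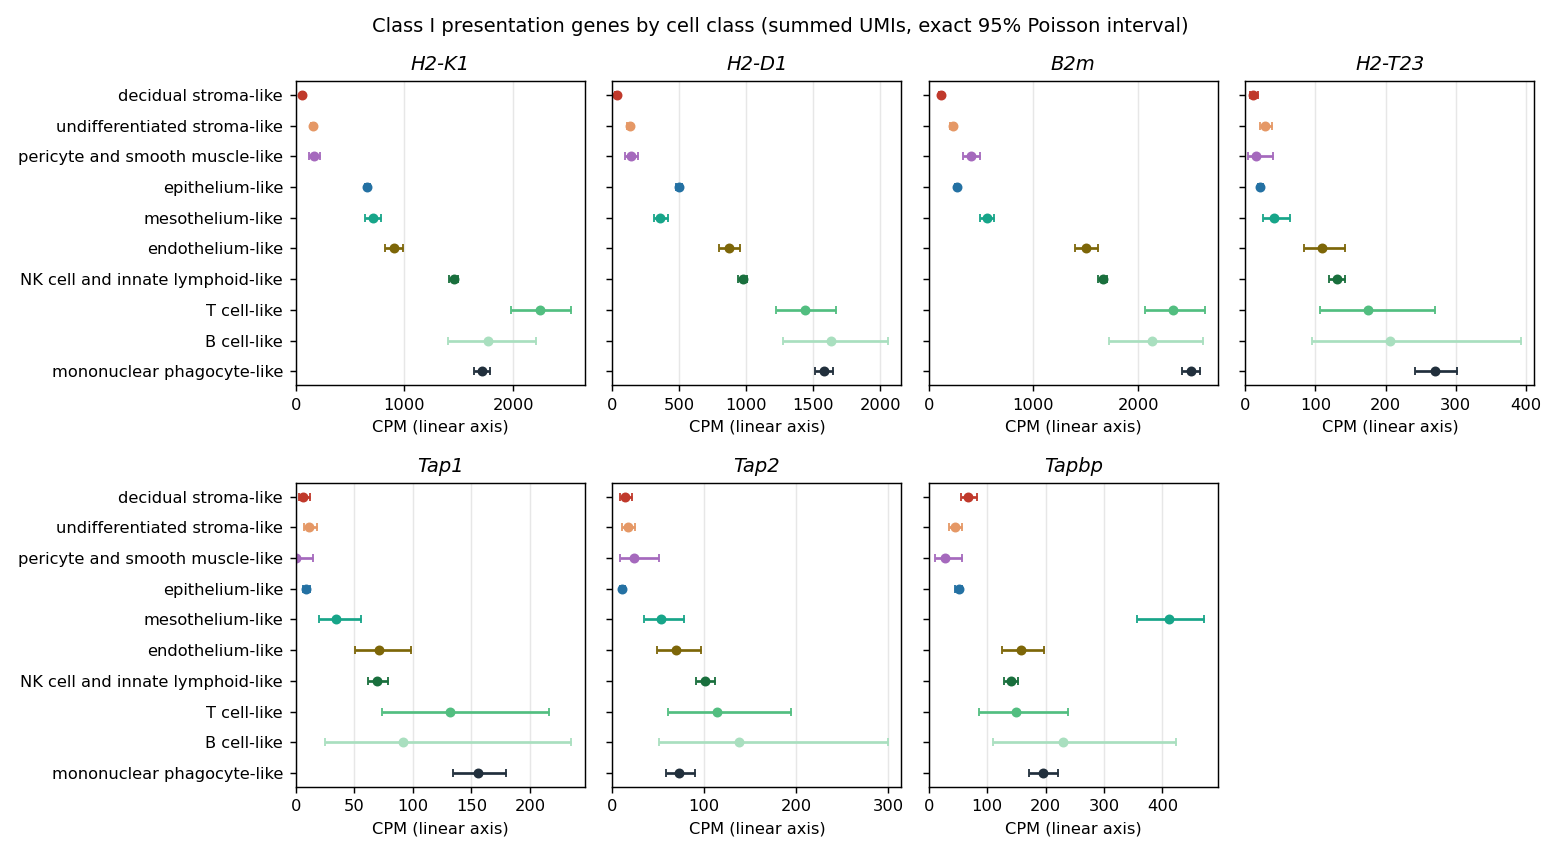
Summed UMIs of each class I gene in CPM of the class (linear axis, own scale in each panel) in 10 cell classes, with exact 95% Poisson intervals that cover counting error in 1 library. Decidual stroma-like cells are lowest for H2-K1, H2-D1 and B2m, and Tapbp peaks in mesothelium-like cells at 411 CPM.

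Each class was then set against all other kept cells. A gene needed 50 UMIs over both sides to be measured, and was called where the ratio reached 2-fold and its interval left out equality. In mononuclear phagocyte-like cells 6 of the 7 genes were higher and 0 lower (background, the share of all 12179 measured genes called in that direction, 11.1% and 28.8%), led by Tap1 with 156 against 30.7 CPM, while Tap2 was not called (73.0 against 43.4 CPM). In NK cell and innate lymphoid-like cells 5 of 7 were higher and 0 lower (background 11.6% and 34.2%), led by Tap2 with 101 against 26.4 CPM, while H2-D1 (log2 ratio 0.89) and Tapbp (0.61) stayed below 2-fold. T cell-like cells had 6 of 7 higher and 0 lower (background 7.92% and 5.91%), all but Tapbp. B cell-like cells had 6 of 7 higher and 0 lower (background 6.81% and 2.46%), all but Tap1. The median log2 ratio of the 7 genes was 1.51 in phagocyte-like and 1.15 in NK-like cells, where that of all genes was -0.47 and -0.26. In B cell-like cells the median of all genes, 1.28, equals that of the 7 genes, since genes with 0 UMIs in this shallow class stand at the limit that 3 counts allow.

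In the other direction, all 7 genes were lower and 0 higher in undifferentiated stroma-like cells (background 24.1% and 19.8%), with a median log2 ratio of -1.93 against 0.00 for all genes. In decidual stroma-like cells 6 of 7 were lower and 0 higher (background 24.3% and 9.47%), with a median of -2.92 against -0.27 for all genes. H2-D1 was at 33.2 CPM in decidual stroma-like cells against 709 in the other cells, and H2-K1 at 61.6 against 949.6 CPM. Tapbp was the exception, at 67.1 against 109 CPM. Pericyte-like cells had 6 of 7 lower and 0 higher (background 9.95% and 10.9%), all but Tap2. In epithelium-like cells 5 of 7 were lower and 0 higher (background 27.8% and 11.4%), but H2-K1 (659.6 against 970.3 CPM) and H2-D1 (498 against 719.6 CPM) were not. In endothelium-like cells 0 of 7 were higher (background 13.8%) or lower (13.1%), with ratios from 1.05 for H2-K1 to 1.78 for Tap1. In mesothelium-like cells 1 of 7 was higher and 0 lower (background 14.8% and 14.9%), Tapbp with 411 against 94.0 CPM. A scale that centres on the median gene would move these log2 ratios by 0.40 in undifferentiated stroma-like, 0.45 in endothelium-like, 0.38 in pericyte-like, 0.36 in T cell-like, 0.32 in mesothelium-like, 0.21 in NK-like and -0.16 in epithelium-like cells, each to be subtracted. On that scale the number higher was 2 of 7 in NK-like and 3 of 7 in T cell-like cells.

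Decidual stroma-like cells were compared with the undifferentiated stroma-like cells from which decidua forms. The heavy chains were lower in the decidual class by the size rule, and B2m and tapasin were not called. Whether the heavy chains fell more than B2m was not tested, and the intervals of H2-K1 and B2m overlap. H2-D1 had 33.2 CPM in decidual against 131 in undifferentiated cells, 3.93-fold lower (2.86 to 5.51). H2-K1 had 61.6 against 158 CPM, 2.57-fold lower (2.004 to 3.31). H2-T23 had 11.1 CPM in decidual and 28.7 in undifferentiated cells, from 16 and 44 UMIs. B2m had 117 in decidual against 228 CPM in undifferentiated cells, 1.95-fold lower (1.62 to 2.36), which misses the 2-fold mark. Tapbp had 67.1 against 44.4 CPM (log2 ratio 0.60). Of the 5 genes with enough UMIs 3 were lower (background 18.4%) and 0 higher (background 8.75%), and Tap1 and Tap2 were under 50 UMIs over both sides. Over the 3761 genes with at least 50 UMIs in each of these classes, the median log2 ratio was -0.17.

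The heavy chains showed the same order in the clusters that make up both classes. Decidual cluster 1, led by Mt4, Dmkn and Tdo2, had 33.5 CPM of H2-D1 and 57.9 of H2-K1, and decidual cluster 16, led by Rbp4 and Cyp26b1, had 32.6 and 69.5 CPM. Undifferentiated clusters 5 and 6 had 108 and 136 CPM of H2-D1, and 164 and 157 CPM of H2-K1. By value alone, both decidual clusters were below both undifferentiated clusters for H2-D1, H2-K1, H2-T23, Tap1 and Tap2, and the clusters overlapped for B2m and Tapbp. For Tap1 and Tap2 this order cannot be told from counting error. The nearest clusters had 7.11 against 8.97 CPM of Tap1 and 15.2 against 15.5 CPM of Tap2. The ratios of the decidual to the undifferentiated class had intervals that include equality (0.21 to 1.24 for Tap1, 0.432 to 1.52 for Tap2). H2-T23 in undifferentiated cluster 5 rests on 6 UMIs. Between the decidual clusters Tapbp differed, with 82.3 CPM in cluster 1 against 34.7 in cluster 16, 2.37-fold (1.37 to 4.34). This was 1 of 3 measured genes called higher (background 21.5%), and 0 were lower (background 6.79%). Between the undifferentiated clusters B2m differed, with 121 CPM in cluster 5 against 255 in cluster 6 (ratio 0.474, 0.328 to 0.668, 1 of 4 genes lower, background 10.8%, and 0 higher, background 3.59%). Cluster 16 was named decidual on a low marker score of 0.259, with 5 of 12 markers detected. Its 10 leading genes held 0 stromal markers and 1 marker of another set, Rbp4 of embryo and yolk sac endoderm, and it held 72 of the 149 decidual cells. Without it, the 77 cells of cluster 1 had H2-D1 at a ratio of 0.257, H2-K1 at 0.366 and B2m at 0.480 to undifferentiated cells, and B2m was then called lower. Undifferentiated cluster 5 had a score of -0.105.

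The stromal comparison depends on where the border between both states is drawn. With cells of at most 10% mitochondrial UMIs, clustered anew, 143 cells were named decidual and 307 undifferentiated, H2-D1 was at 70.8 against 123 CPM, and 0 genes were called. When clusters were kept as they were and cells above 10% left out, 59 decidual cells had 39.6 CPM of H2-D1 and 58.2 of H2-K1, against 130.5 and 158 CPM in 389 undifferentiated cells. At a clustering resolution of 2, 415 cells were named decidual and 150 undifferentiated. H2-D1 was then at 61.3 against 148 CPM, and B2m at 135.7 against 287 CPM was called lower. H2-K1 (94.2 against 161 CPM) and H2-T23 (18.03 against 26.4 CPM) lost their call there, so that the ratio of B2m (0.472) was below that of H2-K1 (0.586).

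RNA released by other cells can add UMIs to any droplet. The sum of the 13 NK markers was 315 CPM in decidual stroma-like cells, 2.62% (2.38 to 2.87) of the 12026 CPM in the NK-like class, with Ncr1 and Klrb1c at 0 and the other 11 detected. In undifferentiated stroma-like cells it was 118 CPM, 0.983% (0.844 to 1.14), with Xcl1 at 0. Against this, H2-D1 in decidual stroma-like cells stood at 3.41% of its NK-like level, H2-K1 at 4.24% and B2m at 7.03%, and in undifferentiated stroma-like cells at 13.4%, 10.9% and 13.7%. Other marker sets gave other shares in decidual stroma-like cells. Their epithelial marker sum was 2.90% of the epithelium-like level, beside 6.66% for H2-D1 and 9.34% for H2-K1. Their phagocyte marker sum was 34.1% of the phagocyte-like level, nearly all of it from the monocyte set (2783 of 2842 CPM), beside 2.10% for H2-D1 and 3.599% for H2-K1. The monocyte set includes the matrix genes Fn1 and Vcan, so this share cannot be read as RNA released by phagocytes alone. The macrophage set had 58.8 CPM in decidual stroma-like cells. How much of the class I UMIs of decidual stroma-like cells came from other cells was not tested. In epithelium-like cells the NK marker sum was 1.53% of the NK-like level, with H2-K1 at 45.4%, H2-D1 at 51.2% and B2m at 16.03%. In pericyte-like cells the NK marker sum was 11.99% (10.8 to 13.3) of the NK-like level. Ncr1, Nkg7, Klrb1c, Prf1, Eomes, Tbx21 and Xcl1 were at 0 there. Beside this, H2-K1 in pericyte-like cells stood at 11.4% of its NK-like level, H2-D1 at 14.5% and B2m at 24.1%. How much of the class I UMIs of pericyte-like cells came from other cells was not tested.

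The epithelium differed from the stroma in a way that split the pathway. Set against undifferentiated stroma-like cells, a comparison chosen after the values were seen, H2-K1 had 659.6 against 158 CPM (4.18-fold, 3.66 to 4.78) and H2-D1 498 against 131 CPM (3.82-fold, 3.30 to 4.43). B2m had 267 in epithelium-like against 228 CPM in undifferentiated cells (1.17-fold, 1.04 to 1.32). Tapbp had 51.1 against 44.4 CPM, H2-T23 21.5 against 28.7, Tap1 8.82 against 11.8 and Tap2 10.6 against 16.97 CPM. Thus 2 of 7 genes, the classical heavy chains, were higher (background 19.2%) and 0 lower (background 26%), with a median log2 ratio of 0.20 against -0.26 for all genes.

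The count of H2-K1 per count of B2m, which does not depend on the scaling of a class, was 2.47 (2.32 to 2.64) in epithelium-like cells. It was 1.28 (1.09 to 1.501) in mesothelium-like cells, 0.959 in T cell-like, 0.873 in NK-like, 0.828 in B cell-like, 0.691 in undifferentiated stroma-like, 0.684 in phagocyte-like, 0.597 in endothelium-like, 0.527 in decidual stroma-like and 0.412 in pericyte-like cells. The quotient of epithelium over the other classes ran from 1.94 (1.63 to 2.31) for mesothelium to 6.01 (4.13 to 8.87) for pericytes, and over undifferentiated stroma it was 3.58 (2.99 to 4.28). For H2-D1 per B2m the quotient over undifferentiated stroma was 3.27 (2.71 to 3.96). Capture at the 3′ end differs between genes, so a ratio in 1 class has no meaning of its own, and only its difference between classes is read here. The quotient was between 3.21 and 4.42 in the other ways of processing, of which 5 of 16 change only thresholds, totals or decidual cells and cannot move it.

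**Figure D2:**
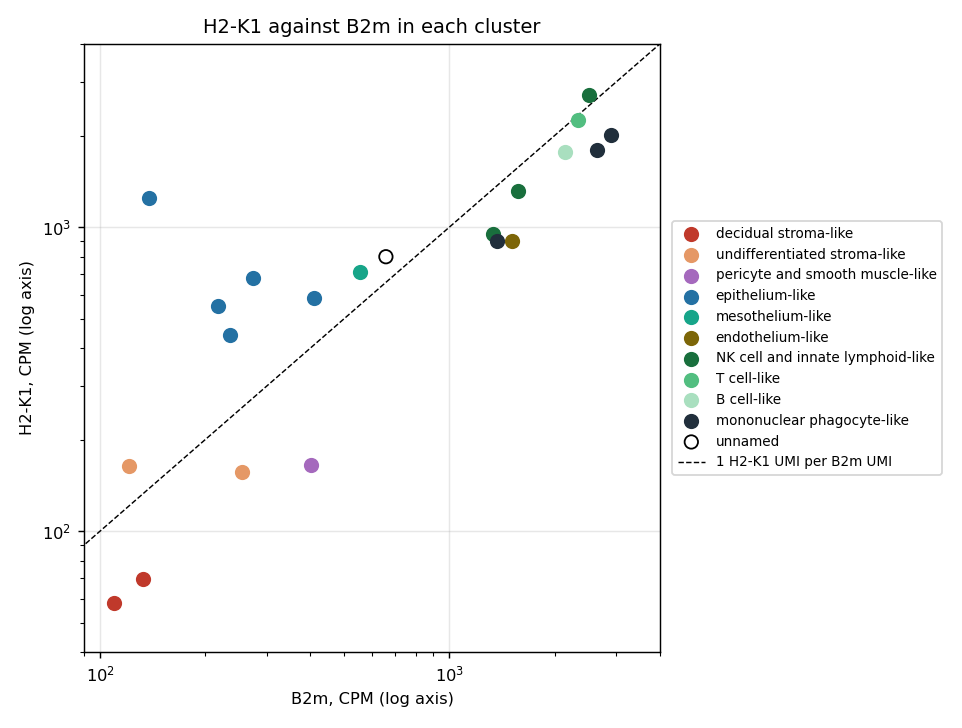
H2-K1 against B2m in each of the 21 clusters, in CPM on log axes, coloured by cell class, with a dashed line at 1 H2-K1 UMI per B2m UMI. All 5 epithelium-like clusters lie above the line, at up to 8.98 H2-K1 UMIs per B2m UMI, and NK-like cluster 2, undifferentiated cluster 5, the mesothelium-like cluster and the unnamed cluster also lie above it, at up to 1.35. Both decidual clusters lie at the lower left.

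Shares of single cells were taken after thinning to 2000 UMIs. They rest on the same UMIs as the class sums, so they are no separate evidence of the split. A UMI of either heavy chain was set against B2m alone, which raises the share of cells with a heavy chain but no B2m. A UMI of H2-K1 or H2-D1 without one of B2m was found in 52.4% (46.9 to 57.9) of 332 epithelium-like cells, 28.7% (23.7 to 34.1) of 310 undifferentiated stroma-like cells, 27.5% of 80 mesothelium-like cells and 9.16% of 131 decidual stroma-like cells. The share was 6.42% of 265 NK-like cells and 2.68% of 149 phagocyte-like cells, where both kinds of transcript were found in 91.7% and 96.6%. Without thinning, over all cells and unequal depths, the shares were 29.9% in epithelium-like and 29.3% in undifferentiated stroma-like cells, so the difference between these classes was seen only after thinning. Thinning both equalised depth and left out shallow cells, and the parts of these steps were not told apart. No class I UMI of any of the 7 genes was found in 61.8% (52.9 to 70.2) of decidual stroma-like, 31.9% (26.8 to 37.4) of undifferentiated stroma-like and 9.64% of epithelium-like cells at 2000 UMIs. Without thinning these shares were 26.2%, 23.8% and 3.21%. Thinning left out 18 decidual, 106 undifferentiated, 42 epithelial, 49 NK-like and 120 phagocyte-like cells. The median cell held 14 class I UMIs in phagocyte-like, 11 in NK-like, 7 in endothelium-like, 4 in mesothelium-like, 3 in epithelium-like, 1 in undifferentiated and 0 in decidual stroma-like cells. No class is known to lack class I transcripts, so no share of cells can serve as their background.

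**Figure D3:**
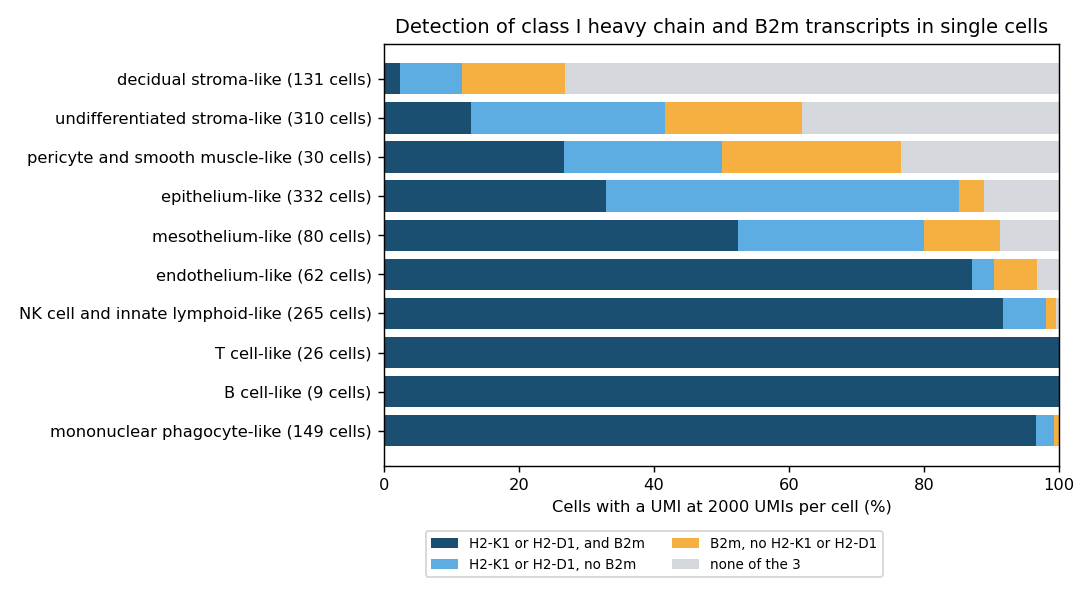
Share of cells, in percent, with UMIs of a classical heavy chain (H2-K1 or H2-D1) and B2m, of 1 of them alone, or of neither, with each cell thinned to 2000 UMIs; the number of cells is beside each class. Heavy chain UMIs without B2m are most frequent in epithelium-like cells, at 52.4%, and none of the 3 genes was found in 73.3% of decidual stroma-like cells.

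Within the epithelium the 5 clusters differed in both directions. Cluster 8, led by Casp4 and Svopl, had the most H2-K1, 1242 CPM (1119.8 to 1374), and the least B2m, 138 CPM (99.7 to 187), which gave 8.98 (6.51 to 12.7) H2-K1 counts per B2m count. The ratio was 2.53 in cluster 10, led by S100g, 2.49 in cluster 9, led by Ces2b and Mmp7, 1.88 in cluster 0, led by Spink1, Prss29 and Prss28, and 1.43 (1.19 to 1.70) in cluster 18, led by Lcn2 and Scx. All 5 were above the ratio of every immune and stromal class, though the interval of undifferentiated cluster 5 (1.35, 0.866 to 2.13) overlaps that of clusters 0 and 18. Cells of cluster 8 had a median mitochondrial share of 16.7%, against 3.78% in cluster 9, and its part in the ratio was not tested; without cluster 8 the quotient of epithelium over undifferentiated stroma was 3.28. Against cluster 10, H2-K1 in cluster 8 was 2.26-fold higher (1.97 to 2.59, 1 of 4 genes measured, background 17.4%) and B2m had a ratio of 0.637 (0.445 to 0.893), with 0 called lower (background 24.7%). Against cluster 9, Tapbp in cluster 8 was called higher, with 75.8 against 37.5 CPM (1 of 4 genes, background 13.2%), and 0 genes lower (background 18.2%). Clusters 9 and 10 differed in 0 of 4 genes (background 5.35% higher, 2.21% lower).

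H2-T23 stood out in cluster 0, whose leading genes Prss28 and Prss29 encode serine proteases of uterine glands. It had 113 CPM (85.2 to 148) from 54 UMIs there, against 9.88 in cluster 8, 14.1 in cluster 9, 6.72 in cluster 10 and 11.4 in cluster 18. The fold was 8.04 (5.26 to 12.4) over cluster 9 and 16.9 (7.27 to 48.0) over cluster 10. At 2000 UMIs, 15.9% (6.64 to 30.1) of 44 cells of cluster 0 held an H2-T23 UMI, against 1.75% of 114 cells of cluster 9 and 0 of 72 cells of cluster 10. The level in cluster 0 was thus near the 110.02 CPM of endothelium-like cells and above that of every stromal class. Tapbp was also higher in cluster 0, with 90.3 against 37.5 CPM in cluster 9 and 38.1 in cluster 10, while H2-D1 was lower than in cluster 9, at 277 against 569.3 CPM. Of 5 genes measured against cluster 9, 2 were higher (background 8.77%) and 1 lower (background 15.2%); against cluster 10, 2 were higher (background 9.93%) and 0 lower (background 12.9%). Against cluster 8, 1 of 5 was higher (background 27.7%) and 2, H2-K1 and H2-D1, were lower (background 24.7%). Cluster 9 held 2905429 of the 5104761 UMIs of the class, so class sums of the epithelium lean on it.

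**Figure D4:**
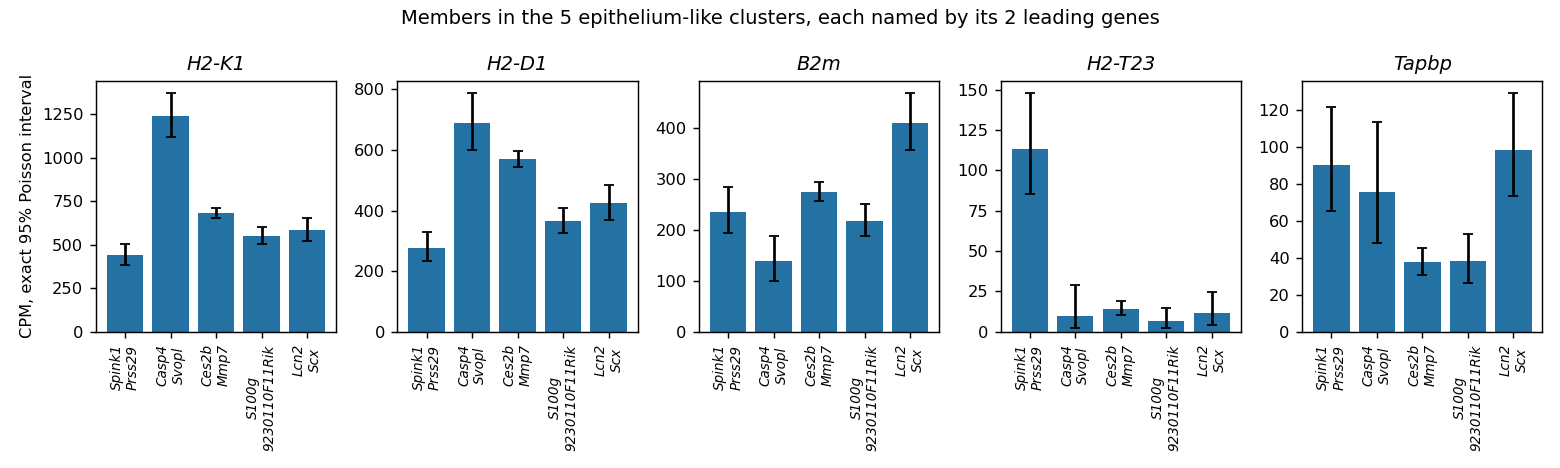
CPM of H2-K1, H2-D1, B2m, H2-T23 and Tapbp (linear axes from 0, own scale in each panel) in the 5 epithelium-like clusters, named by leading genes, with exact 95% Poisson intervals. H2-T23 reaches 113 CPM in the Spink1 and Prss29 cluster and at most 14.1 CPM in the other 4, and the Casp4 cluster pairs the highest H2-K1 with the lowest B2m.

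Among NK cell and innate lymphoid-like cells, cluster 2 (led by Cd7 and Ccl5) exceeded cluster 7 (led by granzymes Gzmf and Gzmg) in the classical heavy chains. H2-K1 had 2726 CPM in cluster 2 against 1317 in cluster 7 (2.07-fold, 1.95 to 2.20), and H2-D1 1702 against 839 CPM (2.03-fold, 1.88 to 2.19). B2m (2509.8 against 1571 CPM) and H2-T23 (207 against 125 CPM) were also above but under 2-fold, and Tap1 (68.1 against 64.1) and Tap2 (86.9 against 115 CPM) had intervals that include equality. Tapbp was not called. Thus 2 of 7 were higher (background 14.7%) and 0 lower (background 14.9%). Median depth was 3731 UMIs in cluster 2 and 15079 in cluster 7, and its part in these differences was not tested. The same cluster 2 had more of the related heavy chains H2-Q6 (406 against 57.7 CPM) and H2-Q7 (491 against 77.4 CPM), and more Ifng, the gene of interferon gamma, with 243 against 4.27 CPM. The standard and immune proteasome genes did not follow, since 5 of 8 were lower (background 14.9%), Psmb8 with 107 against 231 CPM.

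In mononuclear phagocyte-like cells the monocyte-like cluster 3 and the macrophage-like cluster 12 differed by less than 2-fold in every class I gene. Cluster 3 held 166 of the 269 cells of the class. Beside Ly6c2 and Chil3, its leading genes included S100a9 and S100a8 of the neutrophil set and Siglech of the dendritic set. Whether it mixes cell types was not tested. Median depth was 1466.5 UMIs in cluster 3 and 6052 in cluster 12, and the part of depth in these values was not tested. H2-D1 had 2168 CPM in cluster 3 against 1374 in cluster 12 (1.58-fold, 1.43 to 1.74), Tap1 189 against 95.6 (1.98-fold, 1.39 to 2.84) and H2-T23 370.0 against 193 CPM (1.92-fold, 1.498 to 2.46), and 0 of 7 genes passed 2-fold (background 12.6% higher, 7.05% lower). The dendritic-like cluster 4, of 22 cells, had less H2-K1 (901 CPM) and B2m (1365 CPM) than both but the most Tap1 of any cluster, 234 CPM from 53 UMIs, and the most Tap2, 177 CPM from 40 UMIs.

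The other genes of the pathway were taken from 8 lists. Among the immunoproteasome subunits, which replace standard subunits, Psmb8 and Psmb9 are encoded beside the Tap genes. Psmb8 had 213 CPM in NK-like, 185 in phagocyte-like, 10.4 in decidual stroma-like, 9.01 in epithelium-like and 8.49 in undifferentiated stroma-like cells. Psmb9 had 174 CPM in phagocyte-like, 116 in NK-like, 61.3 in mesothelium-like, 6.92 in decidual, 5.68 in epithelium-like and 2.61 in undifferentiated stroma-like cells. Psmb10 had 87.1 CPM in NK-like, 79.7 in mesothelium-like, 15.9 in decidual and 7.83 in undifferentiated stroma-like cells. The standard subunit Psmb5 ran the other way in epithelium, at 176 CPM there against 58.8 in undifferentiated stroma-like cells. Of the 8 genes of this list, 5 were higher in NK-like (background 11.6%) and 3 in phagocyte-like cells (11.1%), and 8 were lower in undifferentiated stroma-like (24.1%), 5 in epithelium-like (27.8%) and 4 in decidual stroma-like cells (24.3%). Between the stromal states 2 of 5 measured genes were higher in decidual cells (background 8.75%), Psme2 of the proteasome activator (73.3 against 29.4 CPM) and Psmb6 (89.95 against 44.4 CPM).

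Among regulators, Nlrc5, the class I transactivator, had 38.5 CPM in phagocyte-like and 35.0 in T cell-like cells but 2.35 in epithelium-like, 1.31 in undifferentiated and 0.692 in decidual stroma-like cells, the last from 1 UMI. Irf1, an interferon regulatory factor that binds class I promoters, broke from this pattern, with 228 CPM in T cell-like, 149.9 in epithelium-like, 139 in phagocyte-like, 24.8 in undifferentiated and 15.2 in decidual stroma-like cells. In epithelium-like against undifferentiated stroma-like cells Irf1 was 6.04-fold higher (4.36 to 8.60) and the NF-kB subunit Rela 2.91-fold higher (2.26 to 3.78), and these were the 2 of 8 measured regulators called (background 19.2%, so the count is near that of all genes). Irf1, Rela, H2-K1 and H2-D1 were thus higher in epithelium-like than in undifferentiated stroma-like cells, while Psmb8, Tap1 and Tap2 were not called and Nlrc5 and Psmb9 had under 50 UMIs over both. Between the stromal states 1 of 6 measured regulators was called lower (background 18.4%), Nfkb1, with 51.9 CPM in decidual against 125 in undifferentiated cells.

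Of the other class I heavy chains, H2-Q4 was 13.7-fold higher (7.17 to 30.3) in epithelium-like cells, with 80.7 against 5.88 CPM in undifferentiated stroma-like cells, while Mr1 (4.11 against 32.6 CPM), which presents microbial metabolites, and Fcgrt (0.784 against 90.1 CPM), the neonatal Fc receptor, were lower. H2-Q7 was led by T cell-like cells with 666 CPM. Mr1 was also lower in decidual than in undifferentiated cells, with 8.30 against 32.6 CPM. Of the peptide loading list, the chaperones Calr (633 against 281 CPM) and Pdia3 (590.2 against 292 CPM) were higher in epithelium-like than in undifferentiated stroma-like cells, and 0 of 8 measured genes of that list were called between the stromal states.

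Interferon-linked genes were low in both stromal classes relative to all other cells, with 16 of 19 measured interferon gamma genes lower in decidual (background 24.3%) and 11 of 19 in undifferentiated stroma-like cells (background 24.1%). Between the stromal states the counts were near the background of 18.4% lower. Of 5 measured interferon gamma genes 1 was lower, Gbp7 with 14.5 CPM in decidual against 48.3 in undifferentiated cells. Of 9 measured type I interferon targets 2 were lower in decidual cells, Ifitm1 (62.3 against 528 CPM) and Ifit2 (13.1 against 30.03 CPM). Gbp2, a guanylate-binding protein induced by interferon, was concentrated in mesothelium-like cells, with 397 CPM, the class with the highest Tapbp value. The class II genes marked other cells: Cd74 had 5030.1 CPM in phagocyte-like and 4066 in B cell-like cells and at most 17.5 CPM in the other named classes. The class I receptors were found mainly in NK cell and innate lymphoid-like cells, where 10 of 12 measured genes were higher (background 11.6%), among them the Ly49 gene Klra7 with 349.7 CPM and Klrd1, the gene of CD94, with 409 CPM.

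**Figure D5:**
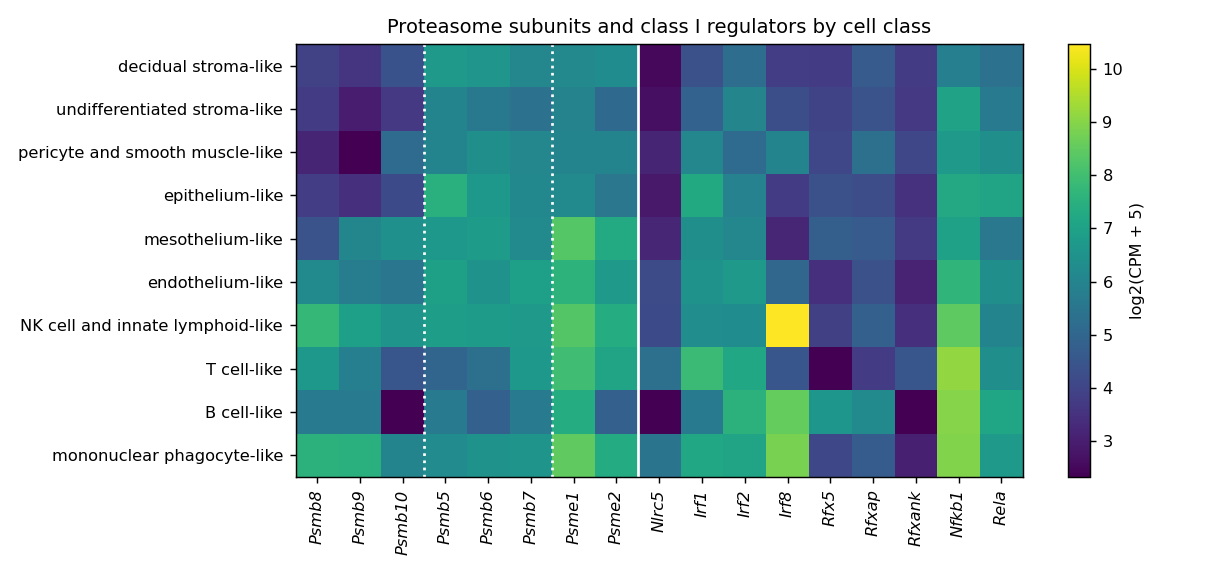
Level of proteasome subunits and class I regulators by cell class, as log2(CPM + 5) in colour, with dotted lines between the immune subunits, standard subunits and activator genes and a solid line before the regulators. Psmb8, Psmb9 and Nlrc5 are low in epithelium-like and both stromal classes, while Irf1 is high in epithelium-like cells at 149.9 CPM.

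Over the 21 clusters the genes varied together to unequal degrees. On log2(CPM + 5), H2-D1 and H2-K1 had r = 0.981, B2m and H2-T23 r = 0.883, B2m and H2-K1 r = 0.809, and H2-D1 and Tap2 r = 0.641, the lowest of the 21 pairs. These are descriptions over clusters of 1 library that differ in depth. The 10 genes most like the mean of the 7, out of 8435 measured, were Sp110, Tspan13, Arhgap25, Inpp5d, Gfod1, Cyth4, Nfatc1, Madd, Diaph1 and Dock8, with r between 0.927 and 0.886. Sp110, an interferon-inducible nuclear body protein, came first and peaked in B cell-like cells at 276 CPM. Arhgap25, Inpp5d, Cyth4 and Dock8 are known chiefly from blood cells. For H2-K1 alone the closest were Ptp4a2 (r = 0.916), Diaph1 (0.915) and Dusp5 (0.875), and for B2m Arhgap25 (0.927), Dazap2 (0.919) and Madd (0.915).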

How the data were processed

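The authors deposited raw UMI counts per gene and barcode in sparse form. Cell Ranger 4.0.0 is named per the file headers and mm10 per the submitters' processing notes; no source used here gives the annotation release or the settings for calling cells. 1 library was analysed and 2 samples were not. 40 features sharing a symbol with another were summed with it, leaving 32247 symbols. Cells had at least 500 genes (2382 barcodes) and at most 20% mitochondrial UMIs (2064), and 1825 met both. Scrublet in scanpy 1.11.5, at an expected rate of 5%, marked 13 doublets (0.712%), which were removed; undetected ones may remain. No barcode occurred more than once.

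Counts were scaled to 10000, and 2000 variable genes, 30 components, 15 neighbours and Leiden resolution 1 (seed 0) were used, with the class I and other list genes left out. Python 3.11.15, numpy 2.4.6 and scipy 1.17.1 were used. Clusters were named by the highest of 16 marker sets (175 markers, mean log2 of CPM plus 5, relative to the median cluster); stromal clusters were divided by the same score among themselves. A cluster stayed unnamed with under 3 detected markers, or with a median depth below the library median divided by 3 and no own marker among its 10 leading genes, or where at least 2 of those genes, and more than its own, marked another class. Names may differ from the authors' own.

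Counts were summed per class, divided by the class total (CPM). Poisson intervals are exact, a ratio between classes has the interval of the exact binomial test given both sums, and shares have Clopper-Pearson intervals. Cells are not replicates, so no p-value is given. All 7 class I genes were named throughout; of the 8 other lists, the 2 highest and 2 lowest genes meeting the size rule, always Psmb8, Psmb9, Psmb10, Nlrc5 and Irf1; 1 further gene of the rule is not reported here. The 10 genes most like the class I mean, and 3 each for H2-K1 and B2m, were named among genes with at least 200 UMIs. H2-T10 was not matched. Levels of Cd74 and Klrd1 by class were added after values were seen. The class I genes and lists were chosen with earlier results of these data known. The size rule was tried on simulated Poisson counts at the totals of both stromal classes. These hold no variation between cells, clusters or libraries, so they cannot show how the rule fares where such variation exists.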

Additional observations from a re-analysis of the deposited data

How the results depend on the processing

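Class levels, the comparisons of each class with all other cells, those between the stromal states and the H2-K1 per B2m quotient were recomputed under 16 other ways of processing; values by cluster, epithelium against undifferentiated stroma by gene, thinned shares, the other lists and correlations were not. Of these ways 12 were planned and 4 added after seeing the data (each of 3 clusters left out, and cells above 10% mitochondrial UMIs left out of fixed clusters). Of the counts and the H2-K1 per B2m quotient, 187 values were close to those reported and 5 were not. With the median of ratios as scale, 2 class I genes were higher in NK-like and 3 in T cell-like cells, against 5 and 6. At a 1.5-fold mark 4 were higher in endothelium-like cells, against 0. With at most 10% mitochondrial UMIs and new clusters, 0 genes were lower in decidual against undifferentiated stroma-like cells, in place of 3; that setting moved cells between both names. The quotient of epithelium over undifferentiated stroma was 4.42 at resolution 2, where 415 cells were named decidual and 150 undifferentiated, and H2-K1 and H2-T23 then lost their call between both states (log2 -0.77 and -0.55); the cause was not tested. Of the ratios of single genes, 1144 kept their call or lack of one, 26 lost the call, 28 gained it and 0 were called in the opposite direction. For ratios not called in either setting the direction was not compared, so some of them may have changed sign. With the mean over cells, calls rest on the fold alone, without an interval. H2-K1, B2m, Tap1, Tapbp and H2-T23 had the same highest class in 16 of 16 settings, Tap2 in 15 and H2-D1 in 13. Part of this was fixed in advance. Settings that change only thresholds or the scale of ratios leave class levels as they are. Leaving out a stromal or epithelial cluster cannot change a highest class that is immune or mesothelial.

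No paired analysis was possible because the series gives 1 analysed library and no replicate numbers. Depth limits the transporter genes most: Tap1 had 604 and Tap2 671 UMIs in all kept cells, and B cell-like cells held 43532 UMIs in all.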

Other observations

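The cluster left unnamed (35 cells, median 1272 UMIs, led by Igf2bp1 and H19) had 799 CPM (595 to 1050.2) of H2-K1, 658 of B2m and 376 of H2-D1, from 51, 42 and 24 UMIs. It had 0 Tap1 UMIs, which allows up to 47.0 CPM at a limit of 3 counts, and 1.21 (0.791 to 1.87) H2-K1 counts per B2m count. Its NK marker sum was 62.4% of that of NK cell and innate lymphoid-like cells.

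The third NK-like cluster, led by histone genes and the mitotic genes Kif11 and Top2a (39 cells, median 32489 UMIs), had 948 CPM of H2-K1, 771 of H2-D1 and 1332 of B2m, below both other NK-like clusters, while its Tap1 (78.5 CPM) and Tap2 (88.9 CPM) lay within or above their range.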
